A study of Mus musculus with 468 samples.

Results

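The cholesterol synthesis genes described here are Hmgcs1, Idi1, Fdft1, Sqle, Lss, Cyp51, Insig1 and Srebf2, 8 of the 23180 genes in the count table. They were chosen by gene symbol, with earlier results of these data known, and all 8 passed the filter on low counts that left 18380 genes. The data are RNA sequencing of the gonadal fat pad, a visceral fat depot, of adult Diversity Outbred mice, with 1 library per mouse. Diversity Outbred mice are an outbred stock bred from inbred founder strains, so that hardly any 2 animals are alike in genotype. Every mouse was fed a diet rich in fat and sugar (HFHS, labelled 45 percent fat) from a few weeks of age until they were killed, and per the methods of the study both sexes and several generations were included. The labels give no sex, generation or weight, so the libraries form 1 group with no untreated mice, and the questions are how these transcripts varied among mice and with what they varied.

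Cells make cholesterol from acetyl units through mevalonate, farnesyl diphosphate, squalene and lanosterol. When sterols run low in the endoplasmic reticulum, the protein encoded by Srebf2 is carried to the Golgi, cut, and enters the nucleus, where it raises transcription of the enzymes of this chain. The protein encoded by Insig1 holds that precursor back when sterols are plentiful, and Insig1 is itself a target of the same factors. Srebf1 encodes the related factor best known for fatty acid synthesis, of which Fasn, the fatty acid synthase, is a classic target. Adgre1 encodes F4/80, a surface protein that marks macrophages, which gather in fat during obesity.

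The factors of this family bind sterol regulatory elements and usually act beside NF-Y, which binds CCAAT, and Sp1, which binds GGGCGG. Promoter windows of RefSeq (GRCm38.p6, 250 bases before the start of a gene to 50 after it) were held for 6 of the 8 genes, all but Sqle and Fdft1. They are shown because a shared control region is the textbook reason for grouping these genes. Stretches of 150 bases upstream of the start are printed 5′ to 3′ on the strand of the gene. Those of Cyp51 and Idi1 are not printed. Counted from the RefSeq start, they run from -150 to -1 for Hmgcs1 and from -167 to -18 for Lss. Those of Insig1 and Srebf2 run from -199 to -50 and from -238 to -89. Motifs elsewhere in the windows are thus not shown. Capitals mark the searched letters, TCACNCCAC (a sterol regulatory element), CCAAT and GGGCGG, on either strand, so that ATTGG and CCGCCC are CCAAT and GGGCGG read on the other strand.
Hmgcs1 (chr13:119690201-119690350, + strand): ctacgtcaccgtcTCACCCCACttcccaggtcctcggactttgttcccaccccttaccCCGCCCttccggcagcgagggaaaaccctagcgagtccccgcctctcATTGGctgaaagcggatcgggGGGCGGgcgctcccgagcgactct
Lss (chr10:76531438-76531587, + strand): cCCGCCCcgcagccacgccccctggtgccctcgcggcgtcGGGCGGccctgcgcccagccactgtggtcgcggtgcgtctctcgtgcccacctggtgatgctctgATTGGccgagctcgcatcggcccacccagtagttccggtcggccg
Insig1 (chr5:28071213-28071362, + strand): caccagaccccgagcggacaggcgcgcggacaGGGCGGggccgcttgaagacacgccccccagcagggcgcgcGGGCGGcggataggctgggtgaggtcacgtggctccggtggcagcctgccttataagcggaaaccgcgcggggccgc
Srebf2 (chr15:82147031-82147180, + strand): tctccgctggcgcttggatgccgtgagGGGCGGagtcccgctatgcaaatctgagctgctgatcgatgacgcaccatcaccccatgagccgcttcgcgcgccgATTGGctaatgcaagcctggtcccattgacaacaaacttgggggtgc
In the whole windows, TCACNCCAC was found only in Hmgcs1, 1 of 6, at position -137 from the start, and in 1.24% of all 32851 promoter windows of the same length. CCAAT was found in 6 of 6 windows against 37.4% of all, and GGGCGG in 6 of 6 against 35.7%. The searched motifs did not overlap one another. These matches describe letters in a window and are not evidence of binding.

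Libraries held between 35.3 M and 137.8 M expected counts, with M for mega, and the median library held 82.04 M. The libraries fell into separate clusters by counts of 4 Y chromosome genes, with counts in 51.5% of libraries and none in 48.5%. Xist was under 20 CPM in all libraries of the first cluster and in 2 of the other. The study counts as many males for this tissue as there are libraries with Y chromosome counts, and as many females as there are without. The clusters thus match the sexes in number, and differences between them below may be differences between the sexes. Since the labels give no sex, this could not be checked for single libraries. Relations are given within each cluster, and levels in the clusters are described and not tested. The markers of adipocytes were present throughout, with a summed level of 7280 CPM or more in every library, where CPM is the count scaled to library size. A total of 91 libraries were in the top 5% for a marker of steroid-making cells, liver or epithelium or for a ribosomal RNA gene, and without them the counts of called genes below were the same or fewer by 1.

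The enzymes of the chain were first compared by level. Hmgcs1, which condenses acetyl units to HMG-CoA before the mevalonate step (ENSMUSG00000093930, chromosome 13, 119690379 to 119708260 on GRCm38), lay between 88.4 and 943 CPM, with a median of 416.7 (mean 427.1 ± 149.9, SD over all libraries). Idi1, the isomerase that makes the second isoprene building block (ENSMUSG00000058258, chromosome 13, 8885501 to 8892451), had a lowest value of 14.7 CPM and a median of 47.4 CPM. Fdft1, squalene synthase and the first enzyme given over to sterols (ENSMUSG00000021273, chromosome 14, 63145150 to 63179578), ranged from 21.1 to 174.7 CPM (median 45.3). These ranges span 8.3-fold for Fdft1, 10.7-fold for Hmgcs1 and 11.2-fold for Idi1. The later enzymes varied as widely. Sqle, squalene epoxidase (ENSMUSG00000022351, chromosome 15, 59315077 to 59331192), ranged from 6.92 to 121.3 CPM (median 20.7). Lss, lanosterol synthase (ENSMUSG00000033105, chromosome 10, 76531588 to 76557138), ranged from 23.1 to 268.7 CPM (median 69.3). Cyp51, the demethylase of lanosterol (ENSMUSG00000001467, chromosome 5, 4081145 to 4104746), ranged from 13.3 to 219.8 CPM (median 34.3). The highest Sqle value stood apart: it came from mouse DO222, which also had the highest Fdft1.

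The regulators differed from each other in spread. Insig1 (ENSMUSG00000045294, chromosome 5, 28071363 to 28078662) ranged from 98.9 to 1371 CPM (median 451.2) and had the largest SD of log2 CPM of the 8 genes, 0.65. Srebf2 (ENSMUSG00000022463, chromosome 15, 82147181 to 82205379) ranged from 32.7 to 104.2 CPM (median 47.1) with an SD of 0.26, the smallest of the 8. Across the 9511 genes that averaged 10 CPM or more the median SD was 0.27. Of these genes, 46.4% had a smaller SD than Srebf2, whereas 76% (Fdft1) to 89.2% (Insig1) had a smaller SD than the other 7.

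Per kilobase of annotated exon the 8 genes fell in an order with Insig1 (153.3 ± 63.9 CPM per kb, mean ± SD) and Hmgcs1 (92.97 ± 32.6) far above the rest. Insig1 was above Hmgcs1 in 88.9% of libraries, and Hmgcs1 was above Idi1 (14.4 ± 5.56) in all. Fdft1 (11.6 ± 4.05), Cyp51 (8.48 ± 4.03), Lss (6.83 ± 2.71) and Srebf2 (6.83 ± 1.29) followed, and Sqle was lowest (3.97 ± 1.72). Neighbours in the middle of this order overlapped: Idi1 was above Fdft1 in 74.4% of libraries, Fdft1 above Cyp51 in 77.6%, and Cyp51 above Lss in 76.9%. Lss was above Srebf2 in 45.3%, so these neighbours did not differ beyond their spread. The exon length is the union of all annotated exons of a gene, from 3.093 kb for Insig1 to 10.787 kb for Lss.

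**Figure D1:**
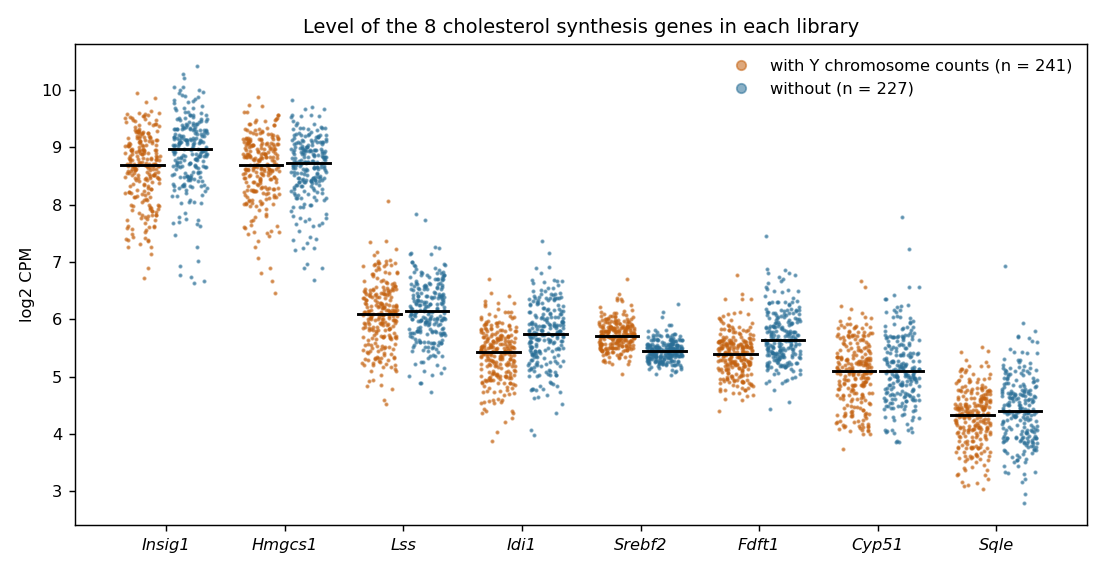
Log2 CPM (vertical axis) of each of the 8 genes, 1 point per library, in libraries with (orange) and without (blue) Y chromosome counts, with black lines at the medians. Insig1 and Hmgcs1 lie well above the other genes, and Srebf2 has the narrowest spread.

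Levels in the clusters overlapped for each of the 8 genes. The median of Hmgcs1 was 411.5 CPM with and 423.2 without Y chromosome counts, and that of Cyp51 was 34.2 and 34.3. Larger gaps were seen for Idi1 (42.9 and 53.7 CPM), Fdft1 (42.3 and 49.97 CPM) and Insig1 (414.1 and 500.8 CPM), which were lower with Y chromosome counts. Srebf2 had the opposite order, 52.6 CPM with and 43.7 without. Among the genes used for comparison, the Fasn median was 4892 CPM with and 14230 without Y chromosome counts, and the Adgre1 median was 62.1 and 38.2 CPM, so that a relation pooled over the clusters mixes the difference between them with variation inside each.

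The transcripts of the pathway were then compared with each other. Sqle, Idi1, Lss, Cyp51 and Insig1 varied together closely, Hmgcs1 followed them less closely, and Srebf2 went largely its own way. Fdft1 stood apart with Y chromosome counts, but without them it followed the others about as closely as Hmgcs1 did. Among the 10 pairs of the first 5 genes, a set picked after the values were seen, Pearson's r of log2 CPM ran from 0.55 to 0.86 within either cluster. The closest pair was Idi1 and Lss, with r = 0.86 in the libraries with and r = 0.85 in those without Y chromosome counts (rho = 0.85 and 0.84). Sqle and Idi1 had r = 0.69 and 0.86, respectively. Over all 28 pairs of the 8 genes, the median r was 0.53 with and 0.48 without Y chromosome counts, and 0.43 over all libraries. By two-sided permutation with 100000 resamples, each pair among the 5 genes had p = 1e-05 in both clusters, the smallest these resamples can give (adjusted p = 1.65e-05 with and 1.4e-05 without Y chromosome counts over the 28 pairs).

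Closeness within the pathway was also read against all other transcripts. Ranked by r over all libraries among 18379 genes, Lss was the fourth closest gene to Idi1 (rank 4), Sqle the second closest to Cyp51 (rank 2), and Idi1 the third closest to both Sqle and Insig1 (rank 3). For Hmgcs1 the closest of the 8 was Insig1 at rank 22. Fdft1 had none of the other 7 among its closest genes, and the best placed of them, Idi1, was at rank 2597. For Srebf2 the best placed was Sqle at rank 3509.

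Fdft1 behaved differently in the clusters. With the mean z score of the other 7 genes (log2 CPM of each gene scaled to a mean of 0 and an SD of 1), it had r = -0.16 with and r = 0.46 without Y chromosome counts. Its r with Sqle was -0.11 (p = 0.0891, permutation) and 0.49 (p = 1e-05, permutation), and its r with Lss was -0.15 (p = 0.019, permutation) and 0.43 (p = 1e-05, permutation). Fdft1 and Srebf2 had r = -0.32 (p = 1e-05) with Y chromosome counts, while no relation was detectable without them (r = 0.04, p = 0.579, permutation). These differences between clusters were not themselves tested. For Hmgcs1, r with the mean z score of the other 7 genes was 0.61 with and 0.435 without Y chromosome counts. In the annotation Fdft1 overlaps Ctsb, Cyp51 overlaps Akap9, and Hmgcs1, Idi1, Lss and Srebf2 overlap short or predicted genes, and reads of overlapping genes can be divided between them.

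Srebf2, which encodes the main driver of the pathway, was a poor guide to its targets at the level of RNA. Its r with the mean z score of the other 7 genes was 0.18 with and 0.23 without Y chromosome counts. Its largest r was with Sqle, 0.48 and 0.39, and with Lss it had 0.16 and 0.07. Over all libraries Srebf2 shared 0.218% of its variance with the other 7 and Fdft1 3.38%, against 69.1% for Sqle, 67.4% for Idi1, 64.1% for Lss, 59.4% for Cyp51, 58.4% for Insig1 and 26.4% for Hmgcs1. These shares pool the clusters, and within them Fdft1 had r = -0.16 with and 0.46 without Y chromosome counts with the other 7. The first principal component of the 8 genes over all libraries held 54.5% of their variance. Its loadings were 0.65 to 0.91 for all but Fdft1 (0.33) and Srebf2 (0.10). The second held 17.5% and set Fdft1 (0.77) against Srebf2 (-0.81).

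**Figure D2:**
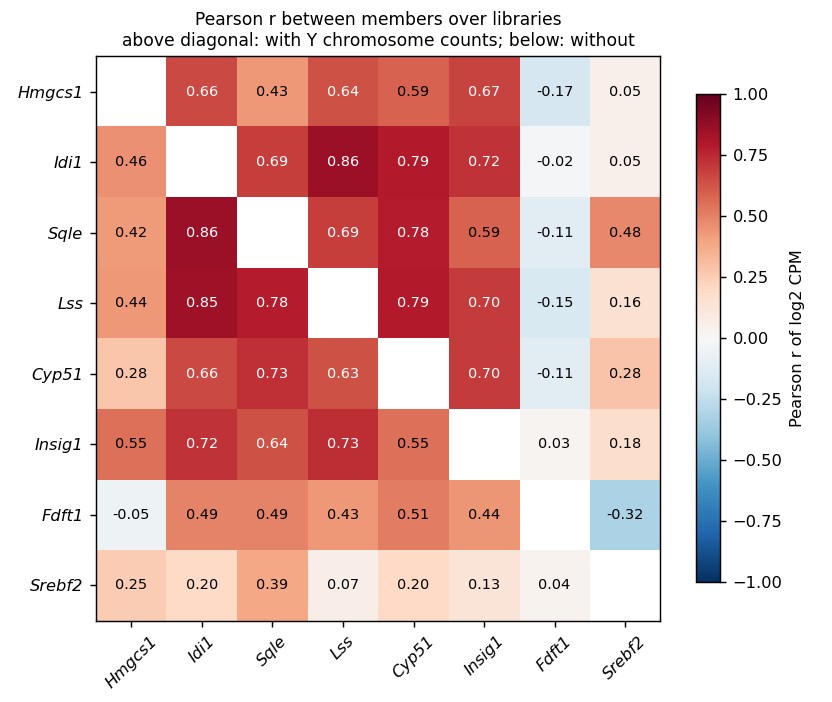
Pearson's r of log2 CPM for each pair of the 8 genes, with libraries with Y chromosome counts above the diagonal and those without below it, from blue (-1) to red (1). The block of Idi1, Sqle, Lss, Cyp51 and Insig1 is red on both sides, and the row and column of Fdft1 change colour across the diagonal.

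Fasn was used to ask whether sterol and fatty acid synthesis varied together. Fasn itself ranged from 1528 to 61680 CPM (median 6769). Higher Fasn went with higher Idi1, Lss, Cyp51, Insig1, Sqle and Fdft1 and with lower Srebf2 in both clusters. For Idi1, r was 0.51 with and 0.59 without Y chromosome counts (rho = 0.50 and 0.59), and for Lss it was 0.45 and 0.52 (rho = 0.45 and 0.50), each with p = 1e-05 by permutation. Hmgcs1 had r = 0.20 with Y chromosome counts (p = 0.00201, adjusted p = 0.00254 over 24 relations, permutation), and in the other libraries no relation was detectable (r = -0.02, p = 0.779, permutation).

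Slopes on Fasn were fitted with edgeR's quasi-likelihood test over all genes tested, with Benjamini-Hochberg adjustment over 18379 genes. Units are log2 per 1 SD of Fasn log2 CPM among the libraries of each fit. Slopes on Srebf1 and Adgre1 below were scaled in the same way. Slopes of different clusters by edgeR are thus not on a common scale. Over all libraries 6 of the 8 genes were higher and 1 was lower with Fasn, which is 7 of 8 called. Fasn followed much of the transcriptome: 80% of all genes were called, 35.7% higher and 44.3% lower, so that being called says little, and the median slope was 0.22 for the 8 genes and -0.02 for all genes. Within the libraries with Y chromosome counts 7 were higher and 1 lower against 43.8% of all genes called (17.7% higher and 26.2% lower), and within the others 6 were higher and 1 lower against 71.4% (31.3% higher and 40% lower). Idi1 had a slope of 0.24 ± 0.03 (SE) with Y chromosome counts (adjusted p = 7.09e-16) and 0.31 ± 0.03 without (adjusted p = 8.26e-22). These are about 1.18-fold and 1.24-fold per SD of Fasn within the cluster. Per 1 SD of Fasn over all libraries the order was the reverse, 0.413 with and 0.335 without. No difference was detectable on that scale (0.0776 ± 0.056, adjusted p = 0.304, limma interaction as below). Fdft1 had 0.09 ± 0.02 (adjusted p = 0.000661) and 0.35 ± 0.02 (adjusted p = 2.68e-40).

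Some slopes on Fasn differed between the clusters, by the interaction of Fasn with the presence of Y chromosome counts (limma on log2 CPM, 1 SD of Fasn over all libraries, adjusted over all genes). The difference was past the threshold for 4 of the 8 genes against 30.7% of all genes (13.1% steeper and 17.6% less steep or more negative with Y chromosome counts). Fdft1 rose less steeply with Y chromosome counts (0.16 against 0.36, difference -0.20 ± 0.04, adjusted p = 0.000125). Hmgcs1 (0.20 against -0.01, difference 0.21 ± 0.07, adjusted p = 0.0222) and Lss (0.44 against 0.28, difference 0.16 ± 0.06, adjusted p = 0.0399) were steeper there. Srebf2 fell more steeply (-0.13 against -0.03, difference -0.10 ± 0.03, adjusted p = 0.00273). Where no Y chromosome counts were found the fall of Srebf2 was small, -0.03 ± 0.01 by edgeR (adjusted p = 0.0112) and r was -0.14 (p = 0.03, permutation) but rho = -0.05 (p = 0.445, permutation).

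Srebf1 was compared in the same way, since its protein shares target sites with that of Srebf2. Without Y chromosome counts all members but Srebf2 were higher with higher Srebf1, from r = 0.32 for Cyp51 to r = 0.55 for Insig1 (p = 1e-05 each, permutation). With Y chromosome counts the relation was weaker: Fdft1 had r = 0.39, Insig1 0.28, Hmgcs1 0.26 and Idi1 0.15 (p = 0.0207, adjusted p = 0.0237 over 24 relations, permutation), and none was detectable for Sqle (r = -0.11, p = 0.0847), Lss (r = 0.04, p = 0.49) and Cyp51 (r = 0.06, p = 0.385; permutation). Srebf2 was lower with higher Srebf1 in this cluster (r = -0.28, p = 1e-05, permutation).

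By edgeR, all 8 genes were called on Srebf1 over all libraries, 7 higher and 1 lower, against 70.4% of all genes (28.6% higher and 41.8% lower). Within the libraries with Y chromosome counts 4 were higher and 1 lower against 55.1% (21.1% higher and 34% lower), and within the others 7 were higher and none lower against 60.2% (25.6% higher and 34.7% lower). The interaction was past the threshold for 6 of the 8 genes, each with the smaller or more negative slope in the libraries with Y chromosome counts, against 29% of all genes in either direction, 16.7% in that one and 12.2% in the other. The largest difference was in Sqle, with a slope of -0.06 with and 0.24 without Y chromosome counts (difference -0.31 ± 0.05, adjusted p = 6.87e-08). Insig1 had 0.20 and 0.33 (difference -0.14 ± 0.05, adjusted p = 0.042). For Hmgcs1 (difference -0.02 ± 0.05, adjusted p = 0.774) and Fdft1 (-0.05 ± 0.04, adjusted p = 0.32) no difference was detectable.

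Adgre1 stands for macrophage content, and in bulk tissue fewer macrophages and less Adgre1 RNA per macrophage cannot be told apart. Adgre1 ranged from 10.7 to 671.6 CPM (median 47.5). Sqle, Idi1, Cyp51 and Insig1 ran in opposite directions with Adgre1 in the clusters. With Y chromosome counts, 7 of the 8 genes were higher where Adgre1 was higher, against 32.4% of all genes called higher by edgeR. Without them, 5 were lower and none was higher, against 30.3% of all genes called lower and 33.4% higher. Hmgcs1, Lss and Srebf2 did not pass the threshold there. Fdft1 was lower with Adgre1 in both clusters.

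For Lss, r with Adgre1 was 0.46 with Y chromosome counts (p = 1e-05, permutation) and -0.14 without (p = 0.0419, adjusted p = 0.0503 over 24 relations, permutation). Cyp51 had 0.43 and -0.16, Sqle 0.38 and -0.20, Idi1 0.32 and -0.27 and Insig1 0.25 and -0.19, with adjusted p of at most 0.0212 in each cluster (permutation, over 24 relations). Fdft1 had r = -0.54 and -0.49 (p = 1e-05 in both, permutation). Srebf2 had r = 0.46 with Y chromosome counts (p = 1e-05, permutation), and no relation was detectable in the others (r = -0.01, p = 0.938, permutation). Without the 2 libraries farthest from the median Adgre1 of their cluster, r was 0.48 and -0.15 for Lss, 0.33 and -0.30 for Idi1 and -0.52 and -0.50 for Fdft1. Each relation called within a cluster with Fasn, Srebf1 or Adgre1 kept its sign without the 2 farthest libraries.

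The edgeR slopes on Adgre1 gave the same split. Over all libraries 3 of the 8 genes were higher and 3 lower against 77.2% of all genes called (35.5% higher and 41.7% lower). Within the libraries with Y chromosome counts 7 were higher and 1 lower against 72.5% of all genes called (32.4% higher and 40.1% lower), and in the others 0 were higher and 5 lower against 63.7% (33.4% higher and 30.3% lower). Over the libraries with Y chromosome counts Lss had a slope of 0.26 ± 0.03 per SD of Adgre1 (adjusted p = 4.93e-13), 1.2-fold, and Fdft1 -0.20 ± 0.02 (adjusted p = 2.44e-19). Without them Idi1 and Sqle each had a slope of -0.14, with SE of 0.03 and 0.04 and adjusted p of 3.75e-05 and 0.000247. The interaction was past the threshold for all 8 genes, each with the higher slope in the libraries with Y chromosome counts, against 49% of all genes in either direction, 25.6% in that one and 23.4% in the other. The differences were 0.37 ± 0.06 for Cyp51 (adjusted p = 3.84e-08), 0.35 ± 0.06 for Lss (1.27e-08), 0.35 ± 0.05 for Idi1 (3.47e-09), 0.35 ± 0.06 for Sqle (4.07e-08) and 0.32 ± 0.07 for Insig1 (3.36e-05), and were smaller for Hmgcs1 (0.22 ± 0.06, adjusted p = 0.00134), Fdft1 (0.12 ± 0.04, adjusted p = 0.00696) and Srebf2 (0.11 ± 0.02, adjusted p = 8.99e-06).

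**Figure D3:**
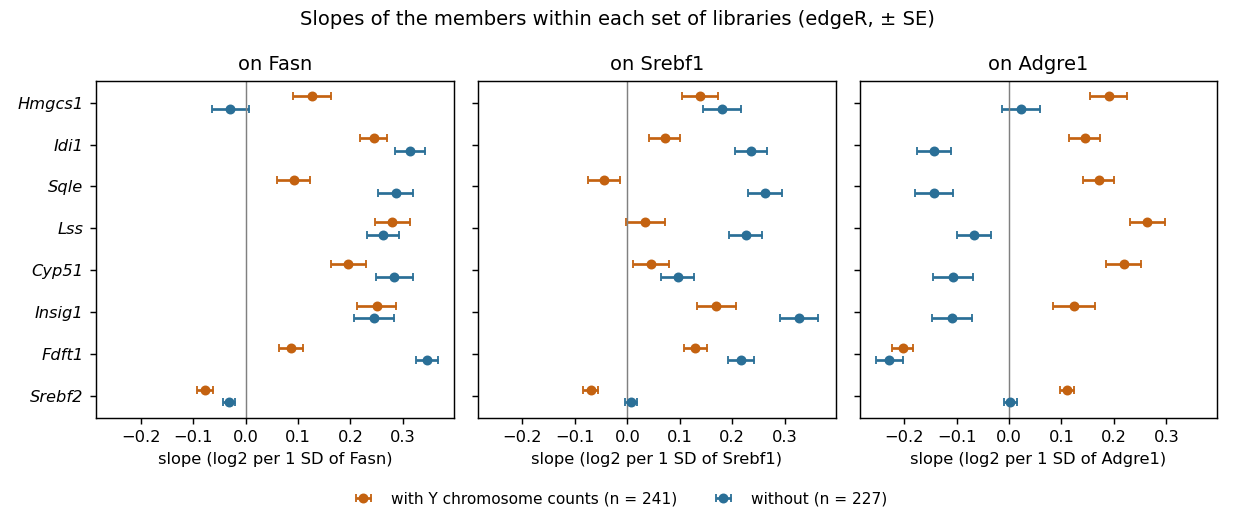
Slope of each gene in log2 units per 1 SD of Fasn, Srebf1 or Adgre1 within each cluster (points, edgeR) with its SE (bars), in libraries with (orange) and without (blue) Y chromosome counts. On Adgre1, Sqle, Idi1, Lss, Cyp51 and Insig1 lie right of 0 in orange and left of it in blue, and Lss without Y chromosome counts did not pass the test.

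Macrophage markers were also taken as a sum. The summed level of 8 macrophage markers, Adgre1 among them and all past the filter, ranged from 290.2 to 5164 CPM over the libraries, with medians of 1110 CPM with and 764 CPM without Y chromosome counts. Its r with the mean z score of the 8 genes was 0.40 with and -0.32 without Y chromosome counts. Fasn itself was lower where Adgre1 was higher, with a slope of -0.20 ± 0.04 with and -0.37 ± 0.05 without Y chromosome counts (adjusted p = 7.84e-07 and 1.75e-12, edgeR). With Fasn in the model, 7 of the 8 genes were higher with Adgre1 over all libraries and 1, Fdft1, was lower. In that fit 72.8% of all genes were called in either direction, and the share called higher was not counted. The fit pools the clusters, so it mixes the difference between them with variation inside each. The summed level of 4 mesothelial markers, from 39.8 to 475.1 CPM, had r = -0.38 and -0.41 with the same mean z score, and that of 5 markers of adipocyte progenitors, with a median of 637.6 CPM, had r = 0.19 and -0.37. The part of these cells in the relations was not tested. The sum of the 7 adipocyte markers, of which Fabp4 was the most abundant, had r = -0.03 and 0.08. The single markers differed in direction. Over all libraries r was 0.255 for Pparg, 0.20 for Lep and 0.14 for Plin1. It was -0.26 for Adipoq, -0.07 for Cidec, -0.05 for Fabp4 and -0.02 for Lipe. The sum of 4 endothelial markers had r = -0.12 and -0.06, and that of 3 T cell markers 0.32 and 0.22. Over all libraries Trac, the most abundant T cell marker, had 0.37, but Cd3e -0.17 and Cd3d -0.12. The sum of 3 B cell markers had r = -0.15 and -0.29, and that of 3 liver markers -0.16 and 0.01. Of the markers of steroid-making cells 2 of 5 passed the filter (r = -0.08 and -0.12), and of mammary epithelium 2 of 4 (-0.20 and -0.28), while markers of germ cells and epididymis, 0 of 4 each past the filter, were not used here.

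**Figure D4:**
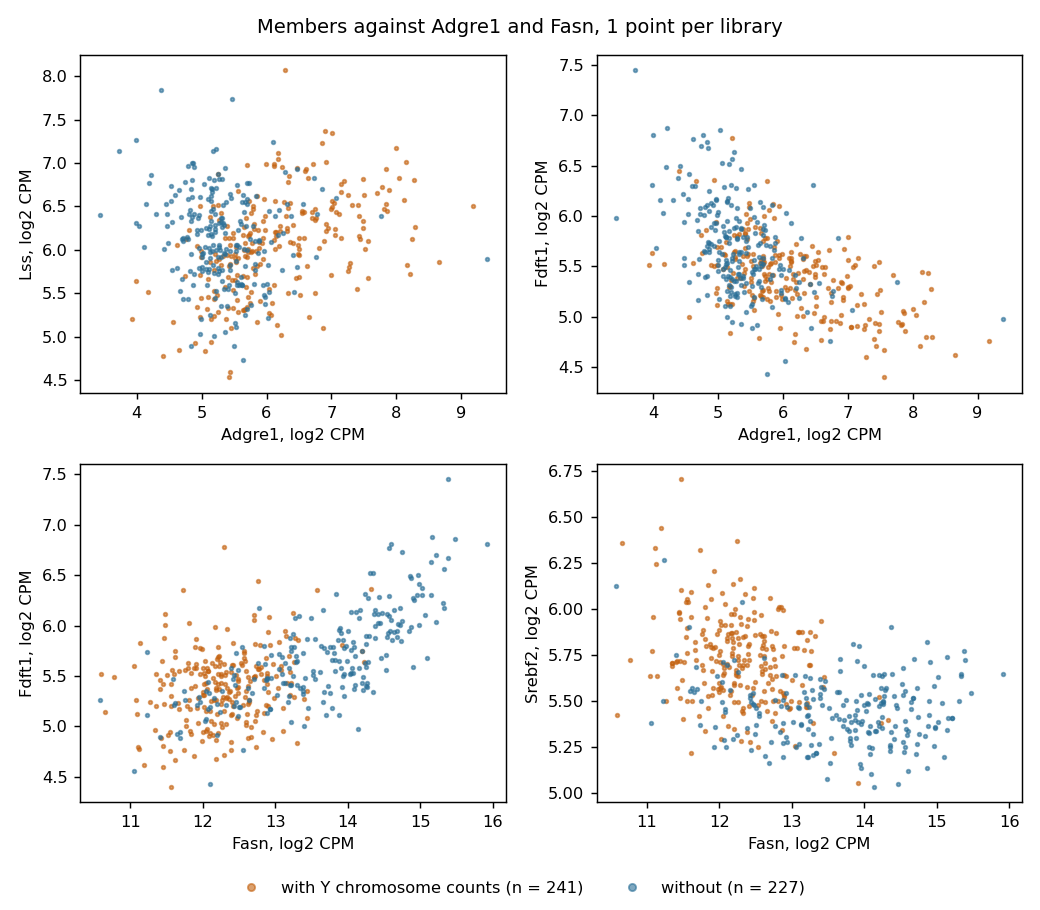
Log2 CPM of Lss and Fdft1 against Adgre1 (top) and of Fdft1 and Srebf2 against Fasn (bottom), 1 point per library, with (orange) and without (blue) Y chromosome counts. Lss rises with Adgre1 in orange and not in blue, Fdft1 falls with Adgre1 in both, and the rise of Fdft1 with Fasn is steeper in blue.

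The rest of the sterol pathway was examined through fixed lists, each gene set against the mean z score of the 8 genes over all libraries. These correlations are descriptions, without a test. The 16 other enzymes of mevalonate and sterol synthesis had a median r of 0.65, and 13 of them lay above 0.39, the 95th percentile of all 18380 genes, whose median was -0.03. Fdps, the farnesyl diphosphate synthase between Idi1 and Fdft1 in the chain, was closest with r = 0.87 (51.9 ± 20.5 CPM). Dhcr7, the last reductase, had 0.84, Mvd, the mevalonate diphosphate decarboxylase, 0.83, and Nsdhl, a sterol dehydrogenase, 0.80. Each had r of at least 0.80 in both clusters. Among those that lay within the range of most genes were Lbr, a protein of the nuclear envelope with sterol reductase activity (-0.19), and Ggps1, which diverts farnesyl diphosphate to protein prenylation (0.02).

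Genes that handle sterols in other ways followed less. The 4 genes that carry, hold back or cut the precursor proteins had a median r of -0.16, with Mbtps1, the first protease, at -0.33. The 10 genes of sterol uptake and trafficking had a median of 0.32. The 7 genes of efflux and of the LXR sterol sensors had a median of -0.18, with Abcg1, an exporter, at -0.23 and Lpcat3, a phospholipid remodelling enzyme, at 0.59. The 14 genes of fatty acid synthesis other than Fasn had a median of 0.36, with Scd2, a desaturase, at 0.70 and Acss2, which activates acetate, at 0.63, while Fads1, another desaturase, had -0.06.

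The lists were also counted in the edgeR fits. With Fasn over all libraries, 12 of the 14 fatty acid genes were higher and 1 lower with a median slope of 0.70, and 9 of the 16 other sterol enzymes were higher and 3 lower with a median of 0.10, against 80% of all genes called (35.7% higher and 44.3% lower), so that the number of sterol enzymes called is near that of all genes. Acat2, which starts the chain, had a slope of 0.49 ± 0.02 (adjusted p = 1.9e-112) and Tm7sf2, a sterol reductase, 0.36 ± 0.02 (adjusted p = 8.98e-77). With Adgre1 in the libraries with Y chromosome counts, 12 of the 16 sterol enzymes were higher and 2 lower with a median slope of 0.18, and 9 of the 10 uptake genes were higher and 1 lower, against 72.5% of all genes called (32.4% higher). In those without, 2 enzymes were higher and 5 lower with a median of -0.04, and 4 uptake genes were higher and 1 lower, against 63.7% of all genes called (33.4% higher). The median slope of all genes was -0.02 and 0.01, respectively.

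**Figure D5:**
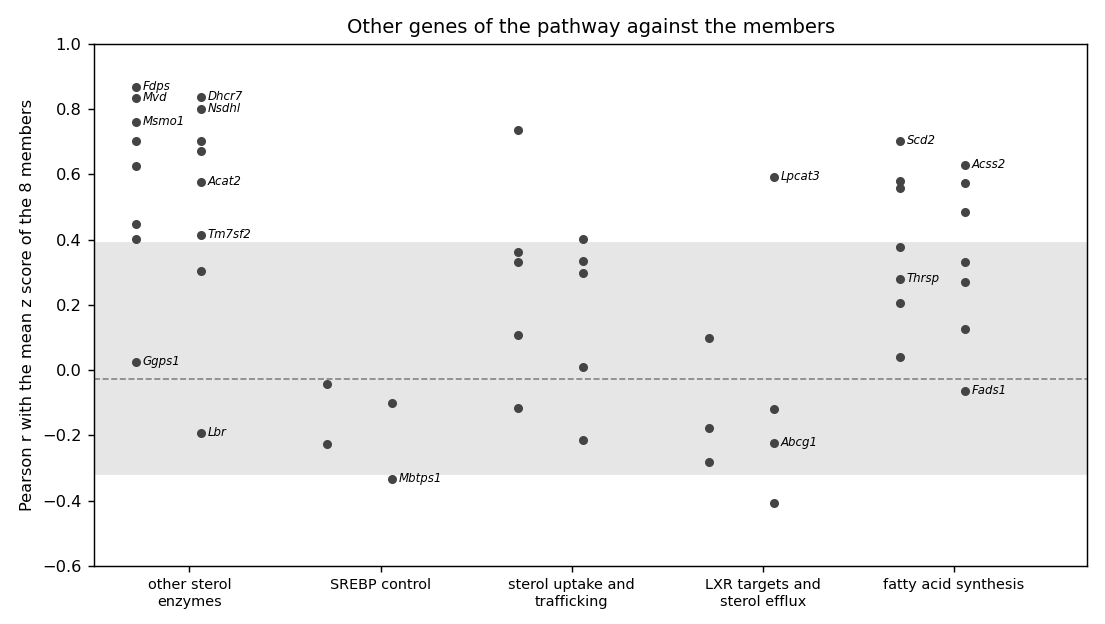
Pearson's r over all libraries of other genes of 5 lists with the mean z score of the 8 cholesterol synthesis genes, 1 point per gene, with the genes named in the text labelled. The grey band runs from the 5th to the 95th percentile of all genes tested (-0.32 to 0.39) and the dashed line is their median, and 13 of the 16 other sterol enzymes lie above the band.

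The genes most like the 8 were looked for among all genes that averaged 10 CPM or more. Of the 10 with the highest r with the mean z score, 5 were sterol enzymes of the lists, namely Fdps, Dhcr7, Mvd, Nsdhl and Msmo1 (0.76). The others included Lactb2, a mitochondrial nuclease (0.77), Pgd, which yields NADPH in the pentose phosphate pathway (0.77), Mindy2 (0.77), and Kmt5a, a histone methyltransferase (0.75). Each of these had r of at least 0.75 in both clusters.

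The closest genes to single members differed. For Idi1 they were Fdps (0.89), Lactb2 (0.86) and Pgd (0.85), and for Lss they were Fdps (0.88), Nsdhl (0.88) and Dhcr7 (0.83). Agpat2, an enzyme of triglyceride synthesis (0.75), was among the 3 closest to Insig1. Hmgcs1 was closest to Megf9 (0.69), and Aopep, an aminopeptidase, was among the 3 closest to Srebf2 (0.675, but 0.33 in the libraries without Y chromosome counts). Fdft1 was closest to Thrsp, a lipogenic gene (0.71 over all libraries, 0.47 with and 0.77 without Y chromosome counts), and Mdh1, malate dehydrogenase (0.70, with 0.48 and 0.74).

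What a member did not share with the other 7 was taken as the residual on their mean z score. For each of the 8 genes, none of the 5 genes most correlated with this residual lay on the same chromosome within 5 Mb, where 0.109% (Hmgcs1) to 0.936% (Lss) of all genes lie, so that a count of 0 in 5 is near the background. The residual of Fdft1 followed Adamts2, a collagen-processing protease (-0.71), and Fmo1 (0.70). That of Srebf2 followed Txlng (-0.72) and Cat, catalase (-0.69), and that of Hmgcs1 followed Pmepa1 (0.63). Residuals and their r were taken over all libraries only, so they mix the difference between the clusters with variation inside each.

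The libraries at the ends of the range show the pattern in single animals. Mouse DO144, without Y chromosome counts, had the lowest mean z score (-2.21), with 6.92 CPM of Sqle, 26.6 of Lss and 118.6 of Hmgcs1 but 40.9 of Fdft1 and 41.3 of Srebf2, against medians of 45.3 and 47.1 CPM. Mouse DO391, with Y chromosome counts, had the second lowest (-2.07), with the lowest Cyp51 of all, 13.3 CPM, beside 64.98 CPM of Fdft1, well above its median. Mouse DO222, without Y chromosome counts, had the highest score (2.54), with 121.3 CPM of Sqle, 149.4 of Cyp51, 1240 of Insig1 and 42560 of Fasn, yet 360 CPM of Hmgcs1, below its median of 416.7. In mouse DO237 (score 1.89) Fasn reached its highest level, 61680 CPM, and so did Idi1, 11.2-fold its lowest.

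The order in which mice and libraries were numbered was examined as a stand-in for batches the labels do not name. Mouse numbers ran in stretches of mostly 1 cluster, such as 21 to 70 without and 71 to 120 with Y chromosome counts. A relation with mouse number over all libraries can thus carry the difference between the clusters. On mouse number, 2 of the 8 genes were higher against 23.5% of all genes called by edgeR: Srebf2 (0.04 ± 0.01 log2 units per 100 mice, adjusted p = 0.0001) and Insig1 (0.06 ± 0.02, adjusted p = 0.00874). Srebf2 was called with Y chromosome counts (0.03 ± 0.01, adjusted p = 0.0272, against 5.99% of all genes called) but not without them (slope -0.000906, adjusted p = 0.96), a difference that was not tested, and Cyp51 and Insig1 were called without them, against 12.8%.On library number, 0 of the 8 genes were called against 0.316% of all genes, 3 had an unadjusted p under 0.05 by edgeR, and limma and DESeq2 also called 0. Within 5 blocks of consecutive library numbers, pooled over the clusters, r of Idi1 and Lss ran from 0.80 to 0.85 and that of Fdft1 and Adgre1 from -0.63 to -0.50, whereas that of Hmgcs1 and Fasn ran from -0.13 to 0.25. Depth moved little with these genes: their r with log10 total count ran from -0.04 for Srebf2 to 0.08 for Hmgcs1.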

How the data were processed

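RNA of the gonadal fat pad of 468 mice was sequenced, 1 library per mouse. The authors quantified reads with allele-aware methods (EMASE and GBRS in the study's methods) and deposited expected counts per gene, of which 66.78% of values were whole within 1e-06, and log2-scale values, also deposited, made by the variance-stabilizing transformation of DESeq2 (version not given). The build in the submitters' processing notes was GRCm38, and 99.2% of gene identifiers had the same position in GENCODE M21.

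Expected counts were rounded for the fits and used as deposited for levels and correlations. Genes with at least 10 counts in at least 50% of libraries were kept (18380 of 23180), and libraries were scaled by TMM (0.5801 to 1.365). Levels are CPM, and log2 CPM uses a prior count of 2. Slopes came from edgeR 4.0.16 (quasi-likelihood, R 4.3.3) with 1 continuous covariate, Benjamini-Hochberg adjusted over all genes with a threshold of 0.05. Differences of slopes between library clusters came from limma 3.58.1. Correlations used 100000 permutations, adjusted over 24 relations or 28 pairs. Because each library is a different animal, p-values measure the spread between mice; relatedness was not modelled. The edgeR script was tested on simulated data for the slope on Fasn. DESeq2 1.42.0, limma, the deposited log2 values, no filter, capped counts, added covariates and subsets of libraries were tried as alternatives.

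The 8 genes and the gene lists were chosen with earlier results of these data known. Genes named are the 8, Fasn, Srebf1 and Adgre1, members of the lists, the 10 closest genes to the mean z score, up to 3 per gene, and up to 5 per residual. Counting error is small at these depths, and no sample column was left out. Some genes that these rules pick are not reported here.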

Additional observations from a re-analysis of the deposited data

Results flagged for a closer look

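The slopes below were singled out because they differed between libraries with and without Y chromosome counts, by an interaction term fitted with limma over all genes. Each value is the slope with minus the slope without Y chromosome counts, in log2 units per 1 SD of the gene named. On Adgre1 the difference was 0.218 for Hmgcs1, 0.349 for Sqle, 0.35 for Idi1, 0.121 for Fdft1, 0.352 for Lss, 0.369 for Cyp51, 0.315 for Insig1 and 0.108 for Srebf2. In 7 of these 8 genes, all but Fdft1, the limma slopes had opposite signs in the clusters, but for Hmgcs1 and Srebf2 the slope without Y chromosome counts was close to 0 (-0.0115 and -0.00112) and positive by edgeR (0.0231 and 0.00218). On Srebf1 it was -0.305 for Sqle, -0.154 for Idi1, -0.181 for Lss, -0.142 for Cyp51, -0.137 for Insig1 and -0.0898 for Srebf2. On Fasn it was 0.207 for Hmgcs1, -0.196 for Fdft1, 0.159 for Lss and -0.0971 for Srebf2.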

How the results depend on the processing

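No paired analysis was possible because the libraries form 1 group with 1 library per mouse. The alternatives that split the libraries by Y chromosome counts or left out the 91 libraries high in markers of other tissues were chosen after seeing the data. Of the slopes of single genes, 94.5% were the same under the alternatives planned and 83.3% under those added. Same means the same side of the threshold, with no turn of sign where either slope was called. Turns of sign between uncalled slopes, as for Hmgcs1 on Fasn (0.0232 over all libraries, -0.0295 without Y chromosome counts), were not counted as changes. The number of the 8 genes called on Srebf1 was 5 with Y chromosome counts only (55.1% of all genes called), against 8 (70.4%). On mouse number it was 1 with Xist and Y chromosome genes as covariates (12.5% of all genes called), 1 with Y chromosome counts only (5.99%) and 1 without the 91 libraries (20.8%), but 4 with limma on log2 CPM and 4 on the deposited log2 values (23.6% each), against 2 (23.5%). On library number it was 1 without Y chromosome counts only (0.479%), against 0 (0.316%). The cause of these shifts was not tested. On Adgre1 the slope turned positive with Fasn in the model for Sqle (0.165), Idi1 (0.17) and Insig1 (0.179), with Xist and Y chromosome genes as covariates for Idi1 (0.00822) and Insig1 (0.0105), and with Y chromosome counts only for Sqle (0.171), Idi1 (0.144) and Insig1 (0.124). It turned negative without Y chromosome counts for Lss (-0.0661) and Cyp51 (-0.107). Other signs that turned, among slopes called over all libraries or under the alternative, were Srebf2 on Srebf1 with Adgre1 in the model (0.00154) or without Y chromosome counts (0.00721), Sqle on Srebf1 with Y chromosome counts (-0.0449) and Srebf2 on mouse number without them (-0.000906). The median r over 28 pairs ran from 0.40 (Spearman) to 0.53 (with Y chromosome counts only) over the 12 alternatives tried.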
